A study of Mus musculus with 13 samples.

Results

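The casein and whey milk protein genes are 10 genes listed by symbol: the caseins Csn1s1, Csn2, Csn1s2a, Csn1s2b and Csn3, the whey protein genes Wap, Lalba, Glycam1 and Lao1, and Btn1a1, which encodes a protein of the milk fat globule membrane. All 10 were found among the 38279 gene symbols of a read count table of 10 mouse mammary libraries. The rule is a list of names and uses no measured value, though the list was drawn up with earlier results of these data known. The libraries were 4 whole mammary glands of wild-type, Cre-negative mice (glands 1 to 4) and 6 mammary tumours of Cre-positive mice (tumours 1 to 6), out of 13 samples in the series. The 3 samples of purified epithelium were not analysed here. Mice of both kinds were mated at 12 weeks of age, which in Cre-positive mice induced excision of Fbxw7, the gene of a substrate-recognition subunit of a ubiquitin ligase. Gland donors were 20 weeks old (glands 1 to 3) or 40 weeks old (gland 4). The tumours were taken at 25, 32, 39, 19, 53 and 25 weeks (tumours 1 to 6). The promoter that drives Cre, the number of litters and the time since the last lactation are not given in the sources used here. Since every tumour came from a Cre-positive mouse and every gland from a Cre-negative mouse, genotype and tumour state cannot be told apart. Ages overlapped between the groups, and a fit with age as a covariate was among the alternatives.

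Milk is made by alveolar luminal cells of the mammary epithelium. In pregnancy and lactation, prolactin acts through its receptor and the transcription factor STAT5, together with glucocorticoids and the alveolar factor ELF5, to switch on the milk protein genes. Caseins assemble into micelles that carry calcium and phosphate, with kappa-casein at the micelle surface. Whey holds the soluble proteins, among them alpha-lactalbumin, which directs galactosyltransferase to the synthesis of lactose. After weaning the secretory cells are lost and milk gene transcripts fall.

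The 4 upstream sequences that follow show the regions before the gene starts for a neighbouring pair of caseins that took different levels in the same tumours, for Wap, and for Glycam1, whose pattern differed from that of the caseins. Capitals mark the STAT5 consensus TTCNNNGAA, which reads the same on both strands. Each run is the 250 bases before the start of transcription in RefSeq (GRCm38.p6), 5′ to 3′ on the gene's own strand.
Csn1s1, chr5:87665958-87666207, + strand: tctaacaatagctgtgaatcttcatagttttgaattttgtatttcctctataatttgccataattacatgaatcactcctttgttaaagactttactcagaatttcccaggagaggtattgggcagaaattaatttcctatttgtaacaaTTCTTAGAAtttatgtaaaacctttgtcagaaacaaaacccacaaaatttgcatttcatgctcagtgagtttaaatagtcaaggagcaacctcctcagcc
Csn2, chr5:87699426-87699675, - strand: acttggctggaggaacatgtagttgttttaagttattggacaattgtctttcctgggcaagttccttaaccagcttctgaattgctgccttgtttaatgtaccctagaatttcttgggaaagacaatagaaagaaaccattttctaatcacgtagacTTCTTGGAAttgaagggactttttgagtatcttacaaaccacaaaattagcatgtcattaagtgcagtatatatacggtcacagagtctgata
Wap, chr11:6638650-6638899, - strand: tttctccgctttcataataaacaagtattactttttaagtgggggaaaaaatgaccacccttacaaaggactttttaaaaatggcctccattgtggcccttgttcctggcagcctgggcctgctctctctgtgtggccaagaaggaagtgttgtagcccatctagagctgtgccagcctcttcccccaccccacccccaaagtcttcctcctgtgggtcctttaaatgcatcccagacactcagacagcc
Glycam1, chr15:103565082-103565331, - strand: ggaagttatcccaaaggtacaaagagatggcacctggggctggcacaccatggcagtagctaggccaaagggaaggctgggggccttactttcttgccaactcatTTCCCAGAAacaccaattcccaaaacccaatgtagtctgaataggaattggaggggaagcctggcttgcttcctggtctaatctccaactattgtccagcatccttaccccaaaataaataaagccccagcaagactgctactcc
The match begins 100 bases before the start in Csn1s1, 93 bases before it in Csn2 and 145 bases before it in Glycam1. Of the 7 genes of the list with a sequence in that table (Csn1s1, Csn2, Csn1s2a, Wap, Lalba, Glycam1 and Lao1), 3 hold the consensus in this window, as do 7.02% of 32851 upstream regions of the same length. A match is a match of letters only, and binding was not measured.

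Library totals ranged from 13723065 (gland 3) to 48353114 counts (gland 2). Levels are CPM, counts scaled to a common library size by the TMM method, so that a few very abundant transcripts do not depress the rest. Of 10 markers of luminal epithelium, 8 were called higher in tumours (edgeR, adjusted p below 0.05), against 6.89% of all genes tested. The summed level of the 10 was 458 to 766 CPM in glands and 1752 to 4084 CPM in tumours. All 8 adipocyte markers were called lower, against 8.19% of all genes tested. In bulk tissue, a change in the number of secretory cells and a change in RNA per cell cannot be told apart. A list of salivary gland markers, of which 14 were in the table, took 43.9% of the counts of tumour 1 (95% Wilson interval 43.88 to 43.92%) and 16.9% of those of tumour 6 (16.87 to 16.90%). In the other 8 libraries it took 0.00906% to 0.0530%. Muscle markers took 6.23% of the counts of gland 4 (107538 CPM after scaling) and 0.00482% of those of gland 3 (36.9 CPM). TMM factors ran from 0.422 (tumour 1) to 1.41 (tumour 5), so CPM values are not shares of the counts. Fbxw7 itself ran from 14.3 to 18.4 CPM in glands 1 to 3, stood at 83.6 CPM in gland 4, and ran from 15.1 to 47.3 CPM in tumours (log2 difference -0.12, adjusted p = 0.888, edgeR), so its level does not check the genotype labels. The counts cover the whole gene, and the sources used here do not name the excised exons.

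Some milk protein transcripts were higher in tumours, led by 3 caseins and Lalba, and the genes differed in level and in their order across tumours. The summed level of the 10 genes was 15.5 to 733 CPM in glands and 263 to 33329 CPM in tumours, and the groups overlapped, since Glycam1 made up most of the sum in glands 2 and 3. Of the 10 genes, 8 were expressed highly enough to be tested, and 4 of these rose (Csn1s1, Csn2, Csn3 and Lalba) with none lower, where 6.89% of all 20101 genes tested were higher in tumours and 15.1% differed in either direction, by the two-sided quasi-likelihood test of edgeR at a Benjamini-Hochberg adjusted p below 0.05. At an unadjusted p below 0.05 there were 6, each with higher levels in tumours, where 33.4% of all genes tested passed that threshold in either direction. In 4 of the tested genes (Csn1s1, Csn1s2a, Csn3 and Wap) every tumour lay above every gland, against 6.54% of all genes tested. For Wap this rested on TMM scaling, since tumour 1 lay below gland 2 without it. In none of the tested genes of the list was every tumour below every gland, against 7.5% of all genes tested. A gene that is near 0 in glands can pass the expression filter only through the tumours, so these shares describe the list and carry no weight of their own. The median log2 fold change was 7.95 over the 8 tested members and 0.17 over all genes tested. With 1 gland left out, the number called was 1 without gland 1 or gland 2 and 2 without gland 3 or gland 4, and the share of all genes called fell in the same fits, to 4.99%, 7.18%, 8.46% and 11.4% without glands 1 to 4.

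**Figure D1:**
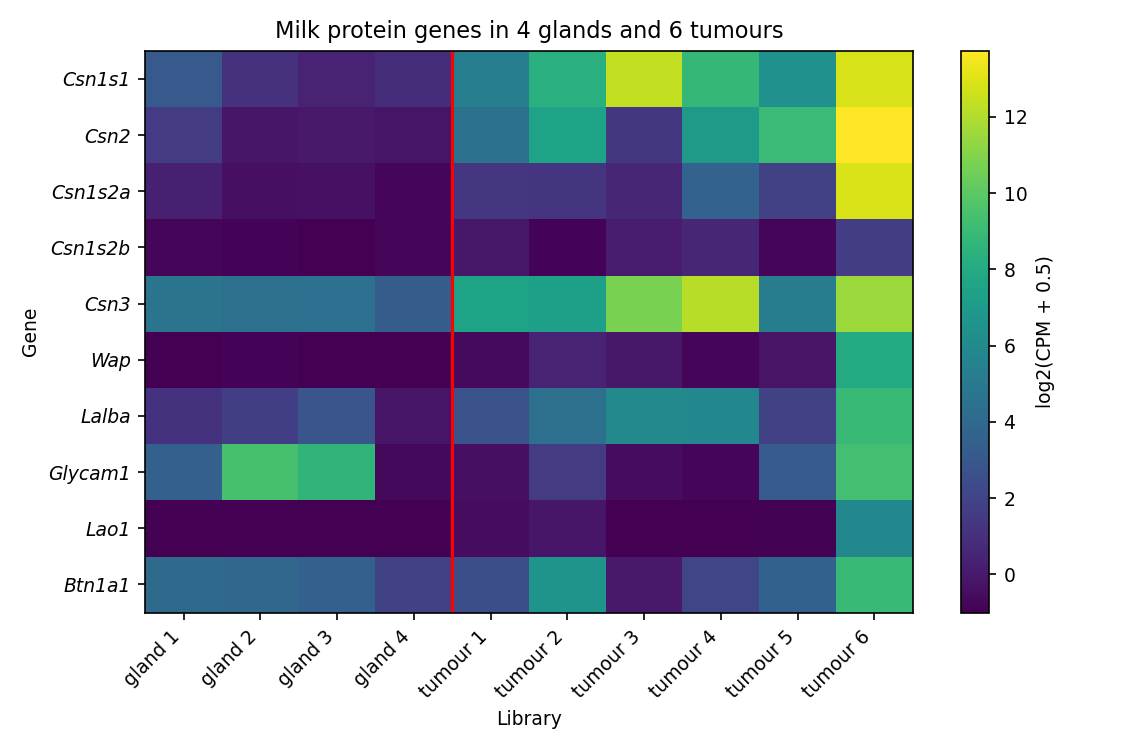
Colour gives log2(CPM + 0.5) for the 10 genes (rows) in 4 glands and 6 tumours (columns, separated by the red line). Tumour 6 is the highest tumour in 9 of 10 genes, and Glycam1 is high in glands 2 and 3, at 693 and 395 CPM.

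Csn1s1, the alpha-s1-casein gene, was at 8.28, 1.64, 0.835 and 1.40 CPM in glands 1 to 4 and at 41.3, 323, 5419, 443, 86.0 and 7269 CPM in tumours 1 to 6. The lowest tumour lay above the highest gland. The log2 fold change was 9.53 ± 2.04 (SE; adjusted p = 0.0142, edgeR), and it was 8.66 without tumour 6 (adjusted p = 0.0162). Csn1s1 was the member whose call held in every one of the 20 alternative fits.

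Csn2, the beta-casein gene next to Csn1s1 on the chromosome, was at 2.51, 0.437, 0.501 and 0.382 CPM in glands and at 22.6, 184, 2.10, 121, 528 and 13600 CPM in tumours 1 to 6. Tumour 3, the second highest tumour for Csn1s1, was here the lowest and lay within the gland range. The log2 fold change was 11.27 ± 2.86 (SE; adjusted p = 0.0259, edgeR). It was 7.46 without tumour 6 (adjusted p = 0.0151). Each of the 4 glands was needed for the call, with adjusted p of 0.0600 to 0.0740 when one was left out.

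Csn1s2a encodes an alpha-s2-type casein. Its levels were 0.713, 0.265, 0.278 and 0.0636 CPM in glands and 1.99, 1.89, 0.989, 12.1, 3.20 and 7627 CPM in tumours 1 to 6. The groups did not overlap, yet a single library, tumour 6, was 630 times as high as the next tumour. The log2 difference of 11.85 ± 3.70 (SE) did not pass (adjusted p = 0.0517, edgeR). Without tumour 6 it was 3.53 and passed (adjusted p = 0.0318). The related Csn1s2b was below the expression filter, with 0 to 4 counts in each gland, 3 to 58 counts in each of tumours 1 to 5 and 98 counts in tumour 6.

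Csn3, the kappa-casein gene, was the casein that stood highest in the glands, at 24.6, 21.6, 20.4 and 9.79 CPM. In tumours 1 to 6 it was at 184, 159, 1750, 4474, 35.2 and 2889 CPM, and it was the 1 gene of the 10 for which a tumour other than tumour 6, namely tumour 4, was highest. No tumour overlapped the glands. The log2 fold change was 6.37 ± 1.44 (SE; adjusted p = 0.0174, edgeR), 6.08 without tumour 6 (adjusted p = 0.0224), and the call was lost without gland 1 (adjusted p = 0.0573) or gland 2 (adjusted p = 0.0507).

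**Figure D2:**
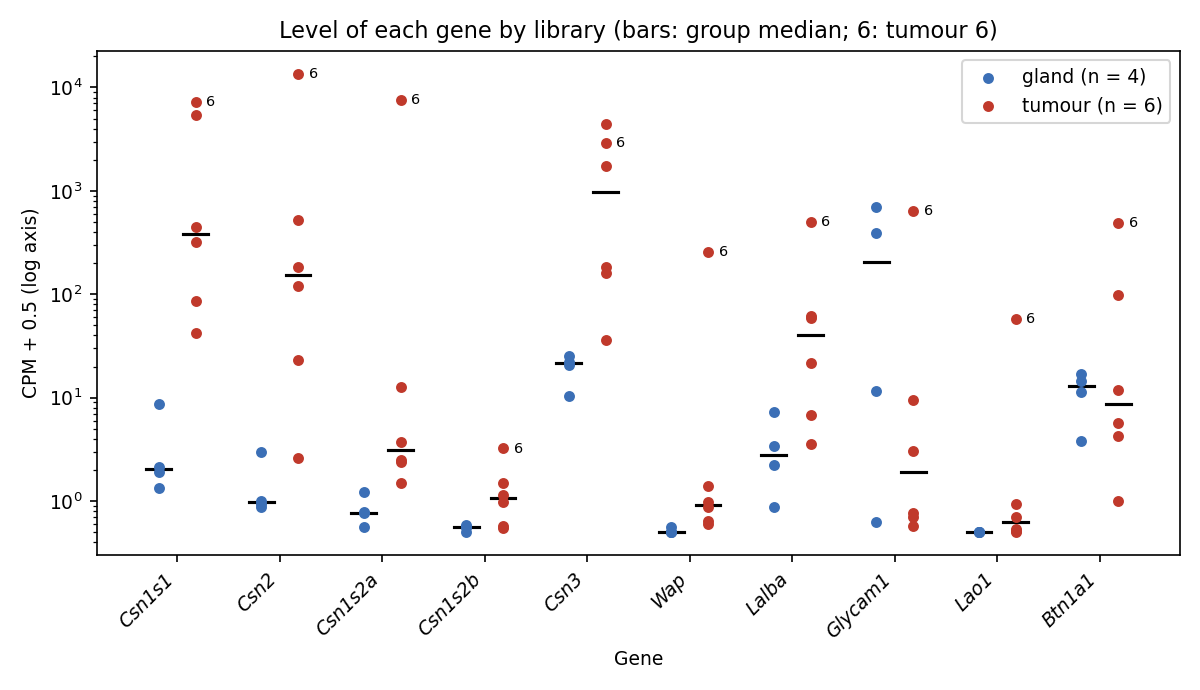
CPM + 0.5 on a log axis for each gene, with 1 point per library (4 glands blue, 6 tumours red), the group median as a black bar and tumour 6 marked. The tumour points of Csn1s2a, Wap and Lao1 lie within 1 decade apart from tumour 6, at 7627, 258 and 57.1 CPM, whereas those of Csn1s1 and Csn3 are spread over more than 2 decades.

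The mix of caseins differed from tumour to tumour. To compare genes with each other, CPM was divided by the length of the longest coding transcript in kilobases. On this scale Csn3 led the 5 caseins in all 4 glands, at 15.4, 13.5, 12.8 and 6.14 CPM per kb, and also in tumours 1 and 4, at 115 and 2803 CPM per kb. Csn1s1 led in tumours 2 and 3, at 229 and 3841 CPM per kb. Csn2 led in tumours 5 and 6, at 397 and 10233 CPM per kb. Csn1s2a was the second casein in tumour 6 alone, at 8290 CPM per kb, and stood at 0.0691 to 13.2 CPM per kb in the other 9 libraries.

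The ratio of 2 counts within a library does not depend on library scaling. The count of Csn1s1 over that of Csn2 was 1.67 to 3.75 in the 4 glands. In tumours it was 1.83, 1.75, 2578, 3.67, 0.163 and 0.534 (tumours 1 to 6). Tumours 1, 2 and 4 thus lay within the gland range, tumour 3 far above it and tumours 5 and 6 below it. The gland ratios rest on 6 to 88 counts of Csn2, and the ratio of tumour 3 rests on 85 counts of Csn2 beside 219109 of Csn1s1.

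**Figure D3:**
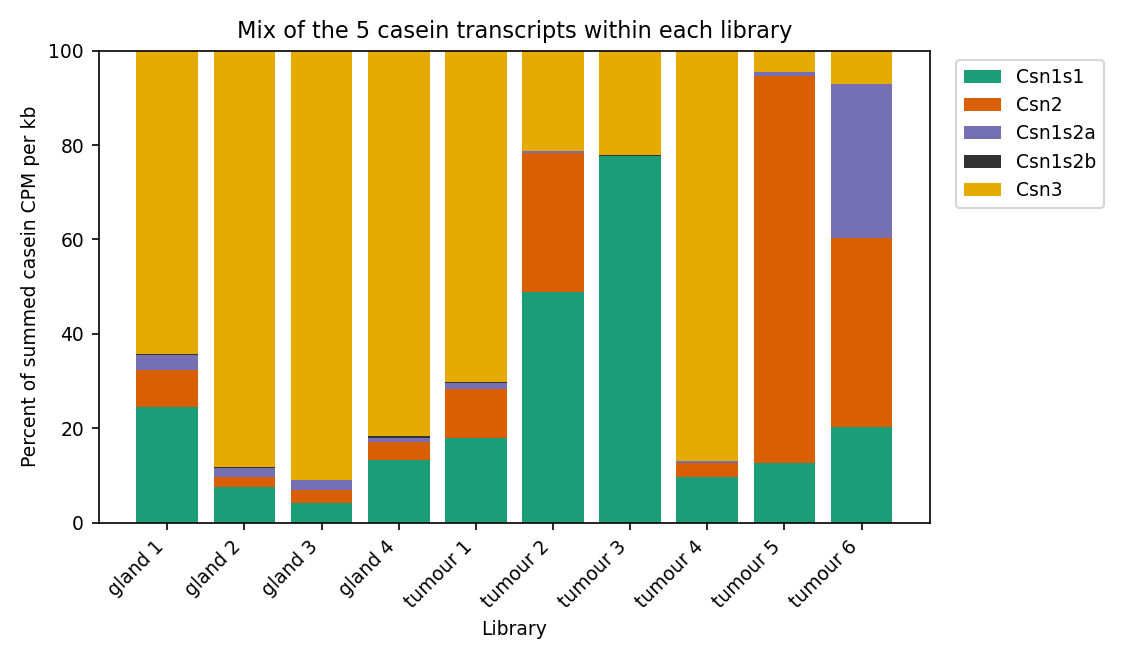
Stacked bars give the share of each casein in the summed casein CPM per kb of each library, from 0 to 100%. Csn3 takes 64.3% to 90.9% in the glands, Csn1s1 takes 77.7% in tumour 3, Csn2 takes 82.1% in tumour 5, and Csn1s2a takes 32.5% in tumour 6 and at most 3.23% in any other library.

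Among the whey genes, Wap, the whey acidic protein gene and a marker of late pregnancy and lactation, was at 0 in glands 1, 3 and 4 and at 0.0624 CPM (4 counts) in gland 2. In tumours 1 to 6 it was at 0.137, 0.908, 0.470, 0.104, 0.372 and 258 CPM. On this scale every tumour lay above every gland, but tumours 1 to 5 held only 2 to 60 counts each. Without TMM scaling, tumour 1 (2 counts, 0.0574 CPM) lay below gland 2 (0.0827 CPM). The log2 difference of 10.54 ± 3.32 (SE) did not pass (adjusted p = 0.0532, edgeR), and without tumour 6 the gene fell below the expression filter.

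Lalba, the alpha-lactalbumin gene, was at 1.71, 2.87, 6.74 and 0.382 CPM in glands and at 6.31, 21.2, 60.5, 58.2, 3.09 and 501 CPM in tumours 1 to 6. Tumours 1 and 5 overlapped the glands. It rose by 5.21 ± 1.55 on the log2 scale (SE; adjusted p = 0.0441, edgeR), and by 3.31 without tumour 6, where the call was lost (adjusted p = 0.0556). Leaving out a gland (each of the 4) or tumour 2, 3 or 4 also ended the call, with adjusted p up to 0.127. Without both tumours that held salivary transcripts (1 and 6) the 4 calls stood, and the log2 fold changes were 8.98 for Csn1s1, 7.75 for Csn2, 6.37 for Csn3 and 3.58 for Lalba. With the muscle-rich gland 4 left out as well, the Lalba value was 3.10 and did not pass (adjusted p = 0.0572).

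Lao1 encodes a secreted L-amino acid oxidase of milk. It had no counts in the 4 glands, which allows up to 0.0226 CPM over the group (3 counts). In tumours 1 to 5 it was at 0.206, 0.439, 0, 0.0173 and 0.0372 CPM and in tumour 6 at 57.1 CPM. It was not tested because it was below the expression filter. The tumour mean was at least 426-fold higher than the gland floor, and at least 6.19-fold higher without tumour 6. These floors cover counting error only.

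Btn1a1, the butyrophilin gene needed for secretion of the fat globule, was at 16.6, 13.8, 10.8 and 3.31 CPM in glands. In tumours 1 to 6 it was at 5.21, 97.6, 0.495, 3.74, 11.3 and 491 CPM. Tumours 2 and 6 lay above all glands, tumour 3 below all, and the others among them. The log2 difference of 3.19 ± 1.62 (SE) did not pass (adjusted p = 0.189, edgeR), and it was 1.05 without tumour 6. Tumour 3 thus combined the second highest Csn1s1 and Lalba levels of the 6 tumours with the lowest levels of Csn2 and Btn1a1.

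Glycam1 encodes a mucin-like protein of whey, and it is also made by high endothelial venules, the vessels through which lymphocytes enter lymph nodes. Its levels were 11.0, 693, 395 and 0.127 CPM in glands 1 to 4 and 0.274, 2.53, 0.198, 0.0693, 8.95 and 635 CPM in tumours 1 to 6. Glands 2 and 3 and tumour 6 were high and the groups overlapped. The log2 difference of -1.35 ± 2.21 (SE) did not pass (adjusted p = 0.684, edgeR). Without tumour 6 it was -6.85 and passed (adjusted p = 0.0481).

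Lymphocyte markers and some venule markers were high in the same 2 glands as Glycam1. The summed level of 10 lymphocyte markers was 872 and 835 CPM in glands 2 and 3, 92.6 and 95.3 CPM in glands 1 and 4, and 8.55 to 221 CPM in tumours. Of 7 venule markers, Ccl21a, a chemokine of lymph node stroma and venules, was at 305 and 287 CPM in glands 2 and 3 and at 5.65 and 0 CPM in glands 1 and 4. Chst4, a sulfotransferase of these venules, was at 6.06 and 2.84 CPM in glands 2 and 3 and at 0.0856 and 0 CPM in glands 1 and 4. Fut7 and Madcam1, also of these venules, were higher in glands 2 and 3 too, at 6.29 and 3.62 CPM and at 2.45 and 2.39 CPM, against at most 0.685 and 0.318 CPM in glands 1 and 4. The other 3 markers did not follow Glycam1 across the glands. Enpp2, an enzyme that fat tissue also makes, was at 214, 173, 173 and 52.5 CPM in glands 1 to 4, and the venule receptor gene Ackr1 was at 5.51, 5.04, 3.51 and 4.51 CPM. In tumour 6, where Glycam1 was at 635 CPM, Ccl21a was at 3.23, Chst4 at 0.112 and the B cell gene Cd79a at 0.725 CPM. Fut7, Madcam1 and Nkx2-3 were at 0.167, 0.0279 and 0.0558 CPM in that tumour, and Enpp2 was at 18.7 CPM. Ackr1 went the other way, at 6.77 CPM in tumour 6, its highest level in the 10 libraries. Tumour 5, with Glycam1 at 8.95 CPM, had the highest lymphocyte sum of the tumours (221 CPM). Fut7 was at 8.35 and Nkx2-3 at 3.53 CPM there, above every other library. Madcam1 (1.10 CPM) and Chst4 (0.726 CPM) were higher there than in the other tumours. Ccl21a was at 13.8 CPM in tumour 5 and at 25.2 CPM in tumour 2. The summed venule list was 57.4 to 498 CPM in glands and 8.44 to 48.6 CPM in tumours, with Nkx2-3 at 0 in all 4 glands. The part of lymph node tissue in the Glycam1 levels of the glands and tumours was not tested.

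**Figure D4:**
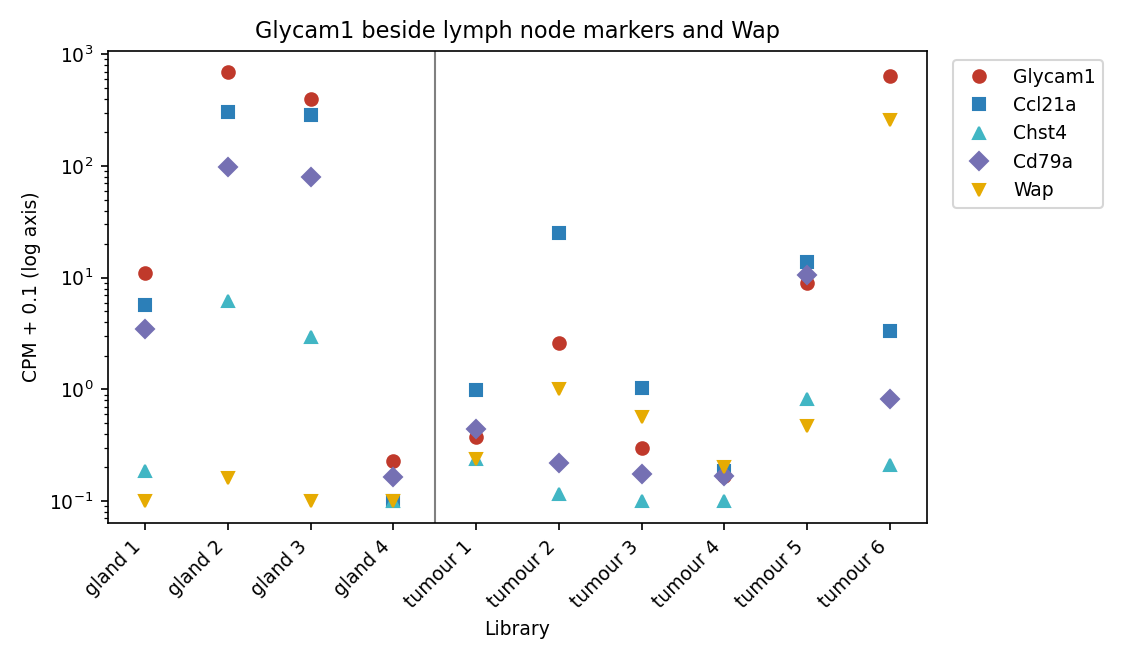
Points give CPM + 0.1 on a log axis for Glycam1, the lymph node markers Ccl21a, Chst4 and Cd79a, and Wap in each library, with glands left of the grey line. Glycam1 and the 3 plotted lymph node markers are all high in glands 2 and 3. In tumour 6 Glycam1 is high beside Wap (258 CPM), and these 3 markers are at 3.23 CPM or less. The venule marker Ackr1, not plotted, was at 6.77 CPM in tumour 6.

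Coordination among the 10 genes was examined over the 6 tumours, since glands and tumours form separate groups. Over the 45 gene pairs, the median Pearson correlation of log2(CPM + 0.5) was 0.742 and the median Spearman correlation 0.429, and 44 of 45 Pearson values were positive. By exact permutation (two-sided, n = 6), 14 pairs had a Pearson p below 0.05 and 5 a Spearman p below 0.05. None passed after Benjamini-Hochberg adjustment over the 45 pairs (smallest adjusted p = 0.144 for Pearson and 0.300 for Spearman, exact permutation). When the 2 tumours farthest from the median of the first gene of a pair were left out, the median Pearson value fell to 0.196 and 26 of 45 were positive. Leaving out extremes narrows the range and leaves few tumours, so a fall is partly built in. Some pairs kept a high value, such as Csn1s2b and Csn3 (0.958), and others turned negative, such as Csn1s2a and Csn3 (-0.994). Tumour 6 was among the tumours left out in 40 of 45 pairs, since it was the highest tumour for 9 of the 10 genes.

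Csn1s1 and Lalba gave r = 0.893 and rho = 0.943 (n = 6; exact permutation p = 0.0181 and 0.0167, adjusted p = 0.144 and 0.300) and r = 0.862 without tumours 3 and 6. Csn2 and Btn1a1 gave r = 0.881 and rho = 0.886 (exact permutation p = 0.0194 and 0.0333, adjusted p = 0.144 and 0.300), but r = 0.375 without tumours 3 and 6. The neighbouring caseins Csn1s1 and Csn2 gave r = 0.156 and rho = 0.200 (exact permutation p = 0.764 and 0.714, adjusted p = 0.818 and 1). Csn2 and Csn3 gave r = 0.0239 and rho = -0.143 (exact permutation p = 0.972 and 0.803, adjusted p = 0.972 and 1). With 6 tumours, a weak value does not show that 2 genes vary apart from each other. Among tumours 1 to 5, the highest level was in tumour 2 for 3 genes (Wap, Lao1 and Btn1a1), in tumour 4 for 3 (Csn1s2a, Csn1s2b and Csn3), in tumour 3 for 2 (Csn1s1 and Lalba) and in tumour 5 for 2 (Csn2 and Glycam1).

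The known regulators of milk genes moved in both directions. Of 12, 2 rose and 4 fell in tumours (edgeR, adjusted p below 0.05), against 6.89% and 8.19% of all genes tested, with a median log2 fold change of -0.03. Elf5 was at 32.8, 14.3, 9.80 and 14.5 CPM in glands and at 183, 202, 317, 114, 38.0 and 353 CPM in tumours 1 to 6, without overlap. It rose by 3.49 ± 0.64 on the log2 scale (SE; adjusted p = 0.00874, edgeR). Id2, a helix-loop-helix inhibitor needed for alveolar development, rose by 2.44 ± 0.44 (adjusted p = 0.00799).

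The prolactin receptor gene Prlr was at 206 to 291 CPM in glands and at 40.6 to 134 CPM in tumours, without overlap. It changed by -1.64 ± 0.32 on the log2 scale (SE, edgeR adjusted p = 0.0109). Stat5b was at 50.2 to 135 CPM in glands and 9.45 to 32.5 CPM in tumours, a change of -1.99 ± 0.38 (adjusted p = 0.00995). Stat5a was at 70.7, 57.4, 50.9 and 28.1 CPM in glands and at 11.7, 13.4, 4.43, 15.0, 17.7 and 27.5 CPM in tumours 1 to 6. Its change was -1.79 ± 0.43 (adjusted p = 0.0216), and the call was lost without gland 1 or gland 2 (adjusted p = 0.0717 and 0.0560) and with age as a covariate (adjusted p = 0.0583). Tumour 6, the library with the highest milk protein transcripts, had the highest Stat5a and Stat5b levels of the 6 tumours, both below every gland. Tumour 3, with 5419 CPM of Csn1s1, had the lowest Stat5a and Stat5b levels of all 10 libraries. Nr3c1, the glucocorticoid receptor gene, fell by 1.43 on the log2 scale (SE 0.25, adjusted p = 0.0074). Cish and Socs2, feedback genes induced by STAT5, did not pass, at 0.47 ± 0.53 (adjusted p = 0.551) and 1.98 ± 0.63 (adjusted p = 0.0540). Socs2 passed without tumour 6 (2.10, adjusted p = 0.0480). The summed level of 8 adipocyte markers was 2450 to 18290 CPM in glands and 14.2 to 901 CPM in tumours, and the part of fat tissue in these falls was not tested.

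Of 20 other products and transporters of the secretory epithelium, 18 were tested and 14 had an unadjusted p below 0.05, against 33.4% of all genes tested. After adjustment 8 rose and none fell (edgeR), against 6.89% and 8.19% of all genes, with a median log2 fold change of 2.92. Wfdc18, an antiprotease of the WAP family, was at 21.8 to 26.2 CPM in glands and at 1613, 2651, 3146, 3598, 493 and 2744 CPM in tumours 1 to 6. It rose by 6.62 ± 0.70 (SE; adjusted p = 0.00163, edgeR). Spp1, the osteopontin gene, was at 3.61 to 12.2 CPM in glands and 151 to 9871 CPM in tumours, and rose by 9.0 ± 1.67 (adjusted p = 0.00879). Pigr, which carries antibodies across the epithelium into milk and saliva, rose by 7.67 ± 1.91 (adjusted p = 0.0246), with its highest values in tumours 1 and 6, at 440 and 144 CPM, the libraries with salivary transcripts. Without tumours 1 and 6 the Pigr value was 4.06 (adjusted p = 0.0196), and leaving out a gland, whichever it was, ended the call with adjusted p of 0.0553 to 0.0781. Xdh and Plin2, whose proteins act with butyrophilin at the fat globule, did not pass, at -0.66 ± 0.71 (adjusted p = 0.526) and -0.69 ± 0.54 (adjusted p = 0.383). Without tumour 6 they were at -1.41 and -1.14, and without tumours 1 and 6 Xdh was at -2.15 and passed (adjusted p = 0.0102). Plin2 is also expressed in fat tissue. Without tumour 6 the list had 5 calls, with Wfdc18, Spp1 and Pigr higher and Tph1 and Fabp3 lower, where 15.6% of all genes were called. Without tumours 1 and 6, 8 were higher and 4 lower (Cidea, Fabp3, Tph1 and Xdh), where 21.7% of all genes were called. Leaving out any 1 of the 4 glands gave 2 calls, where 4.99% to 11.4% of all genes were called.

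**Figure D5:**
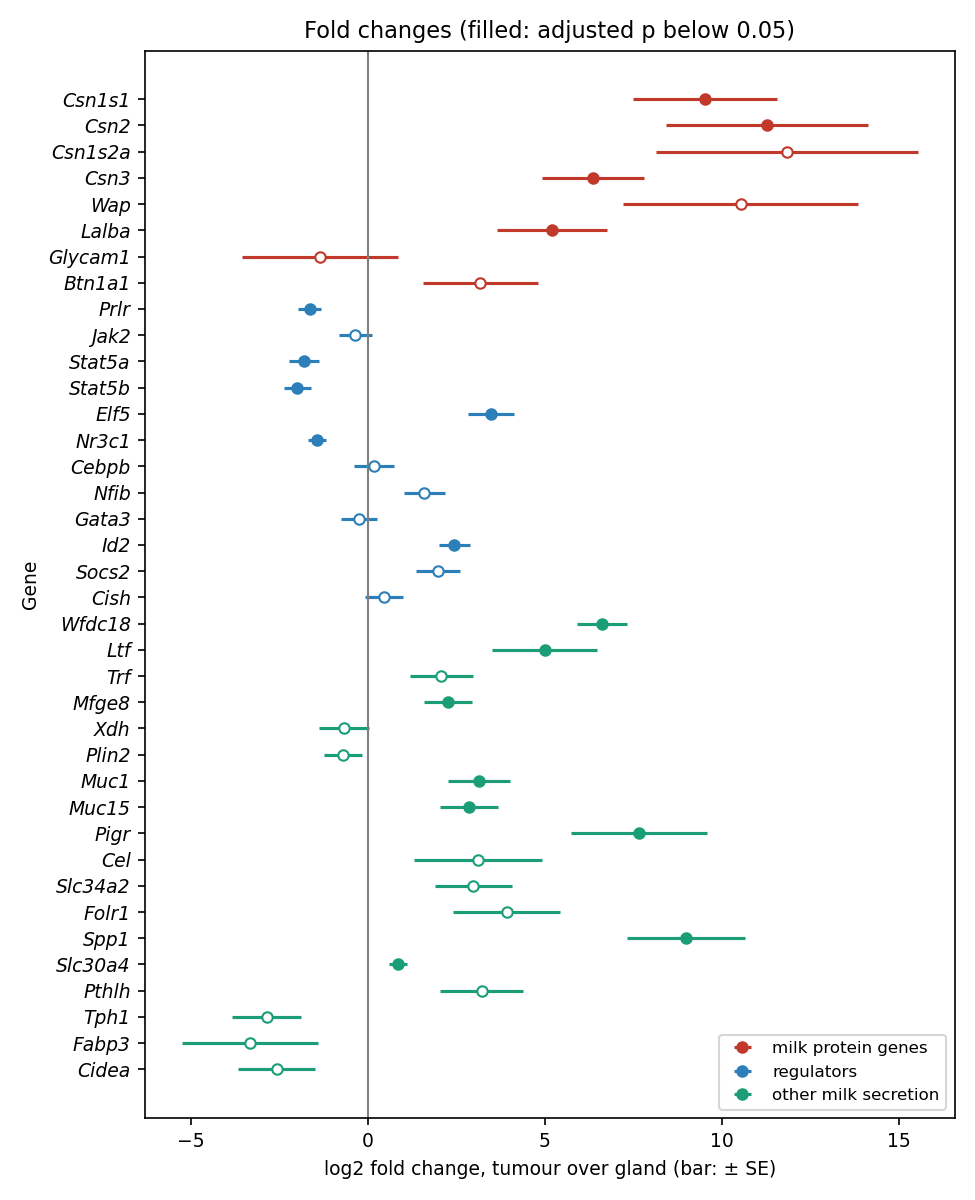
Points give the log2 fold change of tumours over glands with its SE for the 8 tested milk protein genes, 12 regulators and 18 other milk secretion genes, filled where the adjusted p is below 0.05. The 4 filled milk protein genes lie between 5.21 and 11.27, Prlr, Stat5a, Stat5b and Nr3c1 lie between -1.99 and -1.43, and Elf5 and Id2 lie above 0.

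Among 13761 named genes with a mean of at least 1 CPM, the gene whose level ran closest to the mean log2 level of the 5 caseins over the 10 libraries was Osbpl10, an oxysterol-binding protein gene (r = 0.929). Slc28a3, a nucleoside transporter gene, followed at r = 0.924 and Spns2, a sphingosine-1-phosphate transporter gene, at r = 0.923. The next 5 were Bpifb5, Rem2, Trpm6, Timd2 and Cd1d2, with r of 0.908 to 0.922. Slc28a3 was at 0.724 to 1.85 CPM in glands and at 9.39, 19.3, 11.3, 8.03, 4.24 and 52.6 CPM in tumours 1 to 6. Elf5 stood at rank 68 (r = 0.835), and Stat5a, Stat5b and Prlr gave r of -0.450, -0.558 and -0.657. These values describe 10 libraries in 2 groups that differ in the caseins, so a gene higher in tumours than in glands tends to score high. The mean log2 casein level was 10.5 in tumour 6 and 3.75 to 6.42 in tumours 1 to 5. A peak in tumour 6 therefore also raises the score.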

How the data were processed

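Per the labels, tissue RNA was extracted with TRIzol and polyA-selected. The authors deposited whole-number counts, with a row per symbol and a column per library. Salmon 1.2.0, DESeq and mm9 appear in the submitters' processing notes without a role. The sources used here do not say how counts were assigned to genes. They may be rounded estimates, so reads shared by the similar Csn1s2a and Csn1s2b could have been divided between them. Whether every library is a separate animal is not stated. The ages given differ between tumours, except tumours 1 and 6 (both 25 weeks). Glands 1 to 3 share an age of 20 weeks. The p-values rest on library-to-library spread, which may in part be technical. Wilson intervals and floors cover counting error only.

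Counts were tested with edgeR 4.0.16 (R 4.3.3) over all genes: filterByExpr, TMM, quasi-likelihood F test, tumour against gland, Benjamini-Hochberg threshold 0.05. SE is the log2 fold change over the square root of F. The script was tested on simulated data. Alternatives used DESeq2 1.42.0, limma-voom (3.58.1), other scalings and filters, age, and fewer libraries. Transcript lengths are from GENCODE M21, and all 10 symbols matched RefSeq (GRCm38.p6), used for names, gene order and sequences only. Members and lists were chosen with earlier results of these data known. The text names the 10 members, up to 3 called genes per list and direction, 4 preset regulators (Prlr, Stat5a, Stat5b, Elf5) and the 8 genes most alike. Other genes named, among them Cish, Socs2, Xdh, Plin2, Tph1, Fabp3, Cidea, Olah, Cel, Ccl21a, Chst4, Fut7, Madcam1, Enpp2, Ackr1, Nkx2-3, Cd79a, Odam and BC037156, were chosen after their values were seen. Of the marker lists, 3 of 5 luminal progenitor genes rose, 1 of 8 myoepithelial genes rose, 8 of 8 adipocyte genes fell, 1 of 10 lymphocyte, 1 of 4 tested venule and 6 of 8 muscle genes fell, and 3 of 9 tested salivary genes rose, against 6.89% of all genes higher and 8.19% lower.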

Additional observations from a re-analysis of the deposited data

Results flagged for a closer look

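In 8 of the 10 genes, tumour 6 stood apart from the other 5 tumours by more than Dixon's 95% limit, taken on unlogged CPM. Chance exceeds that limit in about 1 of 20 groups only where values are normally distributed. CPM values spread over decades are not, so the flags carry no chance rate, and the genes share this library. The tumour 6 levels were 7627 CPM for Csn1s2a, 2.73 for Csn1s2b, 13600 for Csn2, 258 for Wap, 501 for Lalba, 635 for Glycam1, 57.1 for Lao1 and 491 for Btn1a1. The next highest tumours were at 12.1, 1.01, 528, 0.908, 60.5, 8.95, 0.439 and 97.6 CPM. In the glands, gland 1 stood apart from the other 3 for Csn1s1 at 8.28 CPM and for Csn2 at 2.51 CPM. Gland 2 stood apart for Wap at 0.0624 CPM, which is 4 counts beside 0 in the other glands.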

How the results depend on the processing

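The number of milk protein genes called in either direction, 4 in the reported fit, was 2 with limma-voom, where 15.3% of all genes were called. It was 1 to 6 when 1 library was left out (4.99% to 17.8% of all genes) and 4 to 6 in the other alternatives (6.46% to 26.1%). The counts without tumour 6, and without gland 4 and tumours 1 and 6, include Glycam1 called lower in tumours, and Lalba was not called there. With DESeq2 the number called was also 4 (Csn1s1, Csn3, Lalba and Btn1a1), but DESeq2 gave no adjusted p for Csn1s2a, Csn2 and Wap. The number of regulators called, 6, stayed between 5 and 8, where 4.99% to 26.1% of all genes were called. The number of other milk secretion genes called, 8, was 14 with DESeq2, where 26.1% of all genes were called. With limma-voom it was 5 (15.3% of all genes), and with 1 library left out it was 2 to 8 (4.99% to 17.8%). It was 12 without tumours 1 and 6 (21.7%) and 11 without gland 4 and tumours 1 and 6 (22.1%), and these last 2 fits called Cidea, Fabp3, Tph1 and Xdh lower. DESeq2 and limma-voom called Cidea and Tph1 lower. The Glycam1 difference turned to 0.27 with age as a covariate (adjusted p = 0.952, from 0.0323 to 0.952 over its alternatives). The limma-voom fit also lost the calls of Csn2 and Lalba (adjusted p = 0.136 and 0.147). Csn1s2a passed in 9 of its 19 alternatives with an adjusted p, and its log2 difference ran from 3.34 to 13.30 over them. The median correlation among tumours, 0.742, was 0.723 to 0.780 with other pseudocounts or without TMM scaling. Depth limits Csn1s2b, Wap and Lao1, which held 4 counts or fewer in every gland. No paired analysis was possible because glands came from Cre-negative and tumours from Cre-positive mice, and the labels link no gland to a tumour.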

Other observations

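By gene order in RefSeq (GRCm38.p6), Prr27, Odam and BC037156 lie between Csn1s2b and Csn3, and Smr3a lies beyond Csn3. Smr3a, a gene of salivary secretion, reached 175288 CPM in tumour 1 and 20099 CPM in tumour 6, with 0.521 to 3.06 CPM in the other tumours and at most 0.254 CPM in glands. For BC037156, tumour 1 stood at 16760 CPM and tumour 6 at 2658 CPM, with no other library above 0.329 CPM. Odam was at 89.4 CPM in tumour 1, 19.6 CPM in tumour 4 and 9.59 CPM in tumour 6. Tumour 1, the highest library for these 3 genes, was the lowest tumour for Csn1s1 and was at 22.6 CPM for Csn2, while tumour 6 was high for both sets. Of the 8 genes listed as neighbours of the caseins, 6 were in the table and only Smr3a was tested (adjusted p = 0.0429, edgeR), a call that ended when a gland (each of the 4) was left out, when age was added (adjusted p = 0.0686) and under limma-voom (adjusted p = 0.469).

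Outside the 10 genes, Olah, which sets the medium chain length of milk fatty acids, was at 21.4 CPM in tumour 6 and at most 0.228 CPM in the other 9 libraries. Cel, the lipase secreted into milk, was at 66.9 CPM in tumour 6 and at most 2.61 CPM elsewhere. Both shared the tumour 6 peak of Wap, Lao1 and Csn1s2a, but in tumours 1 to 5 neither lay above all glands. Of the 20 other milk secretion genes, Olah and Cel had the largest ratios of tumour 6 to the highest other library, 93.5 and 25.6. Ltf followed at 5.03, and many of the list were not highest in tumour 6, such as Wfdc18 (0.763), Pigr (0.328) and Pthlh (0.0145). Tumours 1 and 6 were both taken at 25 weeks.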
